A study of Mus musculus with 2 samples.

Results

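The genes examined here encode the proteasome, and were taken as every gene of both libraries whose symbol begins with Psm, a letter from a to g and a digit. The rule found 50 of the 27998 genes in the matrix. They comprise 7 alpha and 7 beta subunits of the core particle, 3 immunoproteasome subunits, 2 tissue-specific core subunits, 9 subunits of the base and 8 of the lid of the regulatory particle, 7 assembly factors, 4 activators and 1 inhibitor. The 2 remaining matches are Psmc3ip, a meiotic recombination factor that is no proteasome subunit, and Psme2b, a copy of the activator gene Psme2. The study profiled iPSCs of the mouse (induced pluripotent stem cells, made from body cells by reprogramming) by droplet single-cell RNA sequencing, with 1 library per genotype. The knockout library came from SRFΔ/Δ cells, in which the gene of serum response factor (Srf) is deleted. The wild-type library came from SRFf/f cells, which carry floxed alleles, and both kinds of cell were grown with serum. The labels give no clone number, passage or Cre line, and 1 library per genotype allows no test between genotypes and no p-value. Each ratio compares these libraries, and each 95% interval covers counting error only.

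The proteasome degrades proteins that carry ubiquitin chains. Its barrel-shaped core is built of rings of alpha and beta subunits, and the beta subunits Psmb5, Psmb6 and Psmb7 carry the protein-cutting sites. The base unfolds substrates with the ATPases Psmc1 to Psmc6, and the lid removes ubiquitin through Psmd14. Interferons induce Psmb8, Psmb9 and Psmb10, which replace the usual catalytic subunits, and the activator pair Psme1 and Psme2. The transcription factor Nfe2l1 raises subunit genes together when proteasome activity falls. Embryonic stem cells are known for high proteasome activity.

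The knockout library held 1073 cells and 22277996 unique molecular identifiers (UMIs, counted molecules), and the wild-type library held 954 cells and 24005849. Cells with under 1000 genes, or with 5 or more UMIs summed over the fibroblast genes Col1a2, Col3a1 and Acta2, were left out, which removed 27 knockout and 12 wild-type cells. The others were split by the share of mitochondrial (mt) UMIs. Under 1% lay 244 knockout and 16 wild-type cells, and from 1 to 10% lay 731 and 893. The 71 knockout and 33 wild-type cells over 10% entered no comparison. The cells under 1% were shallower, with a median of 8632 UMIs in the knockout library against 24423 at 1 to 10%, and 16568.5 against 26656 in the wild type. All 12 pluripotency markers were detected in each class, at a summed 9481 to 13519 counts per 1000000 UMIs (CPM), so markers of the labelled cell type were present in each. Primitive endoderm markers summed to 389 CPM in knockout cells of 1 to 10% mt, 105 in those under 1% and 25.4 in wild-type cells of 1 to 10%. At 1 to 10% mt, Srf itself had 3 UMIs over the knockout cells and 202 over the wild-type cells. The libraries shared 2 cell barcodes.

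The promoters of these genes were read from RefSeq (GRCm38.p6) as the 250 bases before each start, which 42 of the 50 genes had. Since Nfe2l1 acts through antioxidant response elements, the core letters TGACNNNGC of that element were searched on both strands. They occurred in 5 of 42 members (11.9%) and in 10.2% of all 32851 promoters. For each motif, a member was counted if any of its promoters matched, while the share of all counts single promoters, so the units differ. CCAAT, bound by NF-Y, occurred in 15 members (35.7%) and in 33.8% of all. The CArG box, the motif of serum response factor, occurred in Psma6 alone among the members (2.38%, against 1.47% of all). The stretches around the matches in the catalytic subunits Psmb5 and Psmb6, in the ATPase gene Psmc6 and in Psma6 are shown. The antioxidant response matches of Psmd12 and Psmd9 are not shown. Each runs 5′ to 3′ on the gene's strand, with the match in capitals, antioxidant response core in the first 3 and CArG box in the last.
Psmb5, chr14:54617996-54618095, minus strand: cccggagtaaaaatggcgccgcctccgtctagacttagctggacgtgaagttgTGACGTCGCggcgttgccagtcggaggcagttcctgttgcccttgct
Psmb6, chr11:70525257-70525356, plus strand: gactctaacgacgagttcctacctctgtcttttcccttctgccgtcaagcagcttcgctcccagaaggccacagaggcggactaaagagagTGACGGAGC
Psmc6, chr14:45329574-45329673, plus strand: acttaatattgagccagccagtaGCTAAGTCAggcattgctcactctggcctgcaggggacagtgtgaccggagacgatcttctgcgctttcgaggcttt
Psma6, chr12:55384036-55384135, plus strand: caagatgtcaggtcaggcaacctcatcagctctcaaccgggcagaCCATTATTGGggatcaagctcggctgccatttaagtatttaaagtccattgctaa
The match of Psmc6 reads on the opposite strand, and the CArG box of Psma6 overlaps a CCAAT match on that strand. A motif of interferon regulatory factors, GAAA repeated after any 2 bases, occurred in 3 members (7.14%, against 2.98% of all promoters), which were Psmb3, Psmd4 and Psmd9. These shares are descriptions of letters in a window and name no bound site.

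Proteasome genes took the largest share of UMIs in knockout cells with few mitochondrial counts. Summed over the 50 genes, the share was 1.26% (interval 1.249 to 1.275) in knockout cells under 1% mt and 0.686% (0.682 to 0.690) in those of 1 to 10%. In the wild-type library it was 0.845% (0.812 to 0.880) under 1% and 0.729% (0.725 to 0.732) at 1 to 10%. The order of the 4 classes is therefore knockout under 1%, wild type under 1%, wild type at 1 to 10% and knockout at 1 to 10%, with no overlap of the counting intervals between neighbours.

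Single cells of the classes overlapped. The share per cell had a median of 1.33% in knockout cells under 1% mt, with 10th and 90th percentiles of 0.989 and 1.61%. Knockout cells of 1 to 10% had a median of 0.650% (0.422 to 1.04%), and wild-type cells of 1 to 10% had 0.677% (0.433 to 1.002%). Of the 244 knockout cells under 1% mt, 214 (87.7%) lay above the 90th percentile of the other knockout class. Of the 16 wild-type cells under 1%, 7 (43.8%) lay above the 90th percentile of theirs. In counts rather than shares the order was different. The median cell held 119 UMIs of these genes in knockout cells under 1%, 148 in knockout cells of 1 to 10% and 176 in wild-type cells of 1 to 10%.

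From 1 to 10% mt the share was lower in both libraries where mitochondrial counts were higher. In the knockout library it was 1.33% in 151 cells under 0.25% mt, 0.990% in 56 cells of 1 to 2%, 0.726% in 423 cells of 2 to 5% and 0.544% in 252 cells of 5 to 10%. In the wild-type library it was 0.917% in 63 cells of 1 to 2%, 0.731% in 719 cells of 2 to 5% and 0.550% in 111 cells of 5 to 10%. Under 1% the few wild-type cells gave no such order, with 1.02% in 9 cells under 0.25% mt, 0.691% in 4 cells of 0.25 to 0.5% and 0.761% in 3 cells of 0.5 to 1%. Over 10% mt the share was 0.603% in the 71 knockout cells and 0.730% in the 33 wild-type cells, both above the share at 5 to 10%. Between 2 and 10% mt the libraries therefore gave nearly the same shares.

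Depth moved with the share differently in the libraries. Wild-type cells of 1 to 10% mt had a share of 0.539% under 7500 UMIs and 0.754% at 25000 UMIs or more. Knockout cells of 1 to 10% went the other way at low depth, with 1.03% in 38 cells under 7500 UMIs, 0.943% in 28 cells of 7500 to 10000 and 0.626% in 272 cells of 15000 to 25000. The shallow knockout cells of 1 to 10% thus lay closer to the knockout cells under 1%, which had 1.35% under 7500 UMIs and 1.07% at 25000 or more. In the wild-type library, 7 shallow cells under 1% mt had shares of 1.21% (6 cells under 7500 UMIs) and 1.253% (1 cell), while the 9 deeper cells had 0.838% (6 cells) and 0.725% (3 cells).

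**Figure D1:**
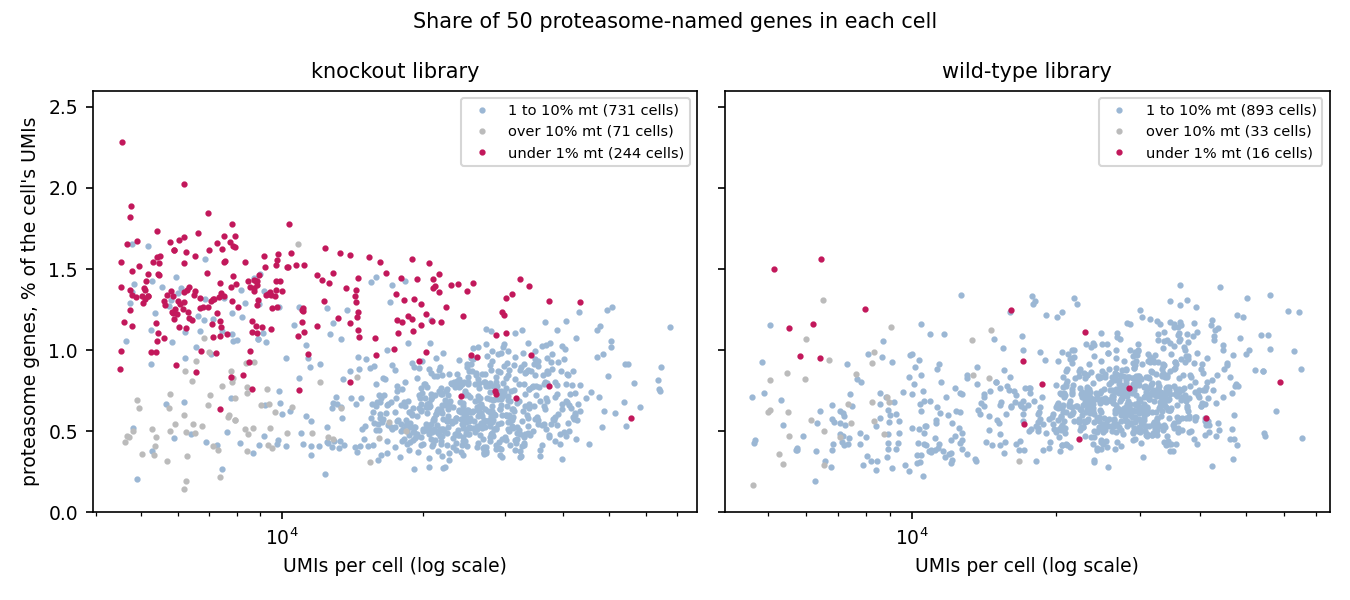
Share of the 50 proteasome-named genes in each cell's UMIs (y axis, percent) against the cell's UMIs (x axis, log scale), in the knockout library (left) and the wild-type library (right), with 1 point per cell coloured by mitochondrial class. Knockout cells under 1% mt form a band around a median of 1.33%, above most of the 731 cells of 1 to 10%, and only 16 wild-type cells lie under 1%.

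Other measures moved with the same split in the knockout library, and their part in it was not tested. Malat1, a nuclear RNA, stood at 1503 CPM in knockout cells under 1% mt and 8489 in those of 1 to 10%, while ribosomal protein genes took 36.3 and 36.9% of UMIs. In the wild-type library Malat1 went the other way, with 10324 CPM under 1% and 5894 at 1 to 10%. In the 9 deeper wild-type cells under 1% Malat1 was at 2940 and 20071 CPM in the same depth ranges as above, and in 6 cells under 7500 UMIs it was at 1097. Long transcripts were scarcer in knockout cells under 1% mt. The median log2 ratio over all genes, under 1% over 1 to 10%, was 0.17, 0.22, -0.23 and -1.18 in 4 equal bins of genes, ordered from short to long by their longest transcript. The members' medians in those bins were 0.97 (23 genes), 1.04 (16), 0.63 (5) and -0.38 (2), so the members' median lay above that of all genes in each bin.

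Within the knockout library, nearly every member that entered was higher in cells under 1% mt than in cells of 1 to 10%. Genes entered when their mean CPM over the 2 classes was at least 10, which 46 of 50 members did, and a gene was called when it was at least 25% higher in either class (0.32 on the log2 scale) with an interval apart from 0. Of all 6039 genes that entered, 27.9% were called higher and 39% lower, 67% in all. Of the 46 members, 41 were called higher and 1 lower. Psma8, among those called higher, reached the minimum only through the cells under 1% mt (5.44 CPM at 1 to 10%). Psme4, the one called lower, reached it only through the cells of 1 to 10% (9.14 CPM under 1%). The members' median log2 ratio was 0.92, against -0.09 over all genes. The other scalings tried moved the median of all genes up to 0.21 (TMM) or 0.31 (median of ratios) and the members' to 1.22 or 1.31, a shift that is the same for every gene. The members' median lay 1.008 above that of all genes, and over the alternatives that distance ran from 0.759 (genes of at least 50 CPM) to 1.42 (at least 1 CPM).

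All 14 core subunits were called higher, with a median of 0.94. Among the alpha subunits, which form the outer rings and gate the channel, Psma1 (chr7:114264606-114276118) had 373 CPM under 1% mt and 148 CPM at 1 to 10%. Its log2 ratio of 1.33 (interval 1.23 to 1.44) was the highest of the 7. Psma7 had the lowest, 0.66 (0.60 to 0.72), from 909 and 575 CPM. Among the beta subunits, the catalytic Psmb7 was highest at 1.12 (1.03 to 1.21), from 486 and 224 CPM, and the catalytic Psmb6 was lowest at 0.73 (0.66 to 0.80), from 669 and 403 CPM. The third catalytic subunit, Psmb5, was at 1.03 (502 and 245 CPM), so all 3 were higher in the cells under 1%.

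Of the 17 base and lid genes that the symbol rule took, 16 were called higher, with a median of 1.10. Shfm1 and Adrm1 also encode parts of the regulatory particle, but their symbols lie outside the rule. Shfm1 had 434 CPM under 1% mt and 452 CPM at 1 to 10%, so it was not higher, and Adrm1 had 187 and 132 CPM. The ATPase Psmc5 (chr11:106256154-106263120) had 297 CPM under 1% mt and 113 CPM at 1 to 10%, a log2 ratio of 1.40 (1.28 to 1.51). The other ATPases with large ratios were Psmc6 at 1.28, Psmc2 at 1.24 and Psmc4 at 1.23. The scaffold subunit Psmd1 had the lowest ratio of the base, 0.32 (0.15 to 0.48), from 126 and 100.9 CPM, and was not called. In the lid, the deubiquitinase Psmd14 (chr2:61711694-61800376) was highest at 1.40 (1.26 to 1.53), from 217 and 82.3 CPM. It was followed by Psmd12 at 1.253 and Psmd6 at 1.23. Psmd3 was lowest at 0.53 (0.37 to 0.69), from 139 and 95.9 CPM.

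Assembly factors, activators and the inhibitor were less uniform. Of the 7 assembly factors 5 were called higher, led by Psmd5 at 1.202 (77.0 and 33.5 CPM). The core assembly chaperone Psmg4 at 0.20 (interval -0.00 to 0.39) and the base chaperone Psmd9 at 0.26 (-0.02 to 0.52) were not called. The activator Psme1 was at 1.08 (83.3 and 39.4 CPM), Psme3, a nuclear activator, was at 0.39 (120 and 91.3 CPM) and Psme2 was at 0.37 (45.7 and 35.4 CPM). Psme4, a large single-chain activator whose longest transcript of 6491 bases lies in the bin of longest genes, was the one member called lower. It had 26 UMIs (9.14 CPM) under 1% mt and 661 UMIs (36.3 CPM) at 1 to 10%, a log2 ratio of -1.96 (-2.62 to -1.43). The inhibitor Psmf1 was at 0.75 (36.2 and 21.6 CPM), and Psmc3ip at 0.51.

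**Figure D2:**
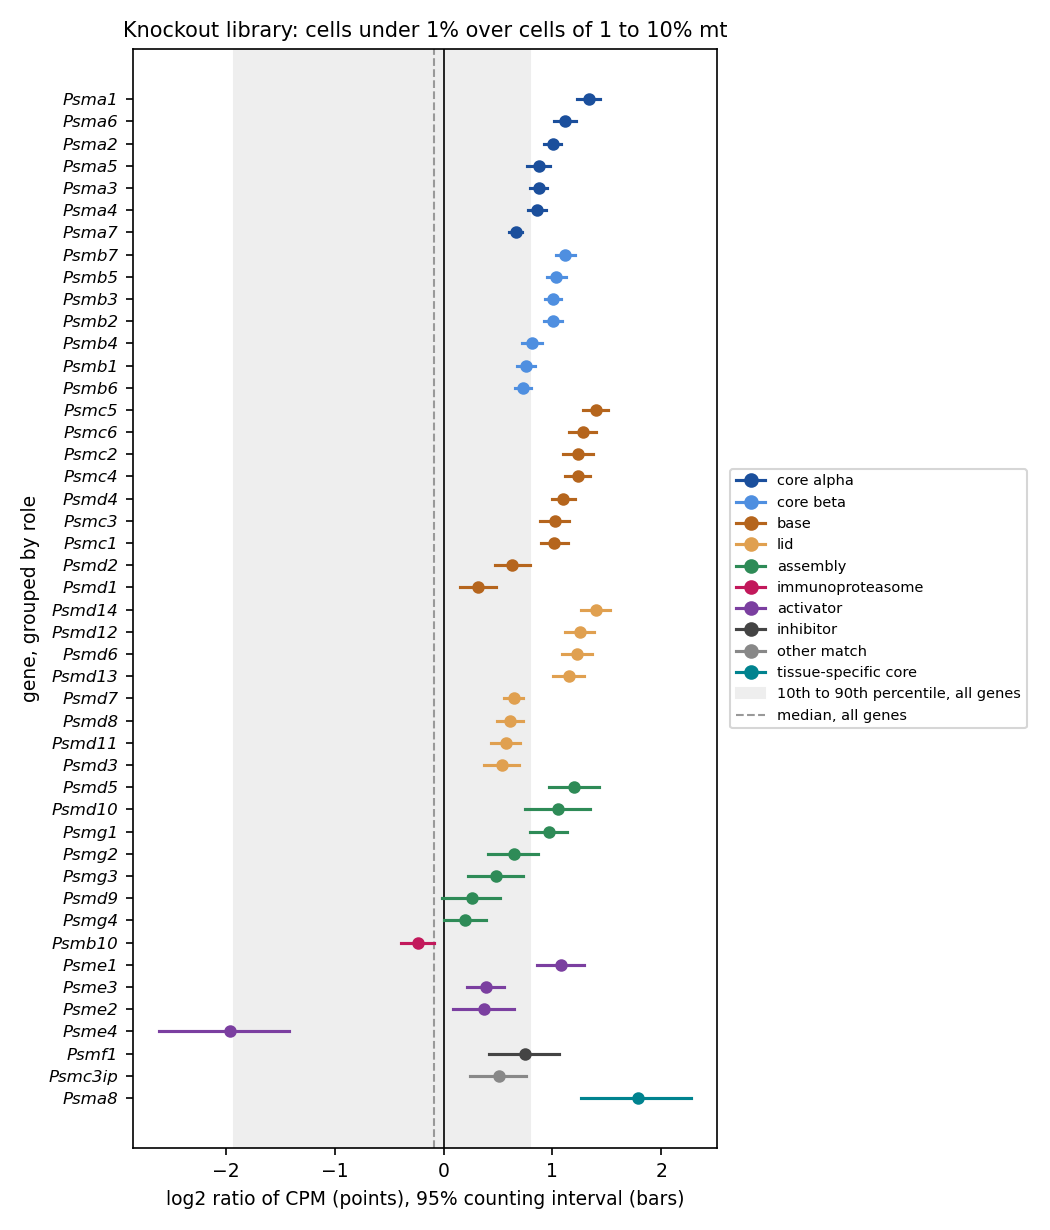
Log2 ratio of CPM in knockout cells under 1% mt over knockout cells of 1 to 10% (x axis) for the 46 members that entered (y axis, grouped by role), with points for ratios, bars for 95% counting intervals, a grey band for the 10th to 90th percentile of all genes and a dashed line for their median of -0.09. All 14 core subunits lie right of 0, and Psme4 at -1.96 lies left of it.

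Of the immunoproteasome genes, Psmb10 alone had enough counts to enter. It had 141 CPM under 1% mt and 166 CPM at 1 to 10%, a log2 ratio of -0.24 (-0.39 to -0.09) that was not called and that turned to 0.06 and 0.15 under the TMM and median of ratios scalings. Psmb8 had 3 and 9 UMIs, and Psmb9 had 11 and 31 UMIs with a ratio of 1.22 (0.04 to 2.21), both too low to enter. Psma8, a core subunit of the testis, entered only through the cells under 1%, with 53 UMIs (18.6 CPM) against 99 UMIs (5.44 CPM).

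Genes outside the symbol rule also had ratios of the same size. The 7 measured genes of the chaperonin CCT, another large complex of many subunits, were all called higher, with a median of 1.09 and a range from 0.70 to 1.35. Of the wider pathway list, 26 genes entered, of which 8 were called higher and 9 lower, with a median of -0.02. The ubiquitin gene Ubb was at 1.23 (2901 and 1239 CPM), the proteasome-bound deubiquitinase Usp14 at 0.92, the proteasome-bound Txnl1 at 0.89 and the core chaperone Pomp at 0.60. Nfe2l1, the activator of subunit genes, was at -2.29 (10.5 and 52.4 CPM), and the ubiquitin ligases Ube3c and Ube3a were at -2.60 and -1.92. These 3 genes have longest transcripts of 4654, 5048 and 9856 bases, in the bin of longest genes, where the median of all genes was -1.18.

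The same split gave smaller ratios in the wild-type library, where only 16 cells lay under 1% mt. Of all 6386 genes that entered there, 14.2% were called higher and 7.69% lower, 21.9% in all. Of 45 members, 14 were called higher and 1, Psmb10, lower. The members' median was 0.17 and that of all genes 0.16, and with TMM scaling they were -0.01 and -0.03. The largest ratio was that of Psmd12, 1.12 (0.70 to 1.48), from 203 CPM under 1% and 94.2 CPM at 1 to 10%, on 58 UMIs in the 16 cells. Psmc5 was at 0.94 (0.54 to 1.30), from 213 and 112 CPM. With each cell weighted alike the members' median was 0.51, and in cells under 15000 UMIs, 7 of them under 1% mt, it was 1.18.

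Between the libraries, cells under 1% mt differed in most subunits. The knockout cells had 7542 CPM over the 14 core genes and the wild-type cells 4999, a log2 ratio of 0.59 (0.52 to 0.67). The 17 regulatory genes had 4055 and 2664 CPM, a ratio of 0.61 (0.50 to 0.71). Of all 5815 genes, 11.6% were called higher in the knockout and 20.5% lower (32.1% in all), and of 46 members 24 were called higher and 0 lower. The members' median of 0.49 stood beside -0.20 over all genes. In cells under 15000 UMIs it was 0.01, beside -0.58 over all genes, and the wild-type cells of that comparison number 7.

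In cells of 1 to 10% mt, which hold most cells of both libraries, proteasome genes differed little between the genotypes. Of all 6554 genes that entered, 22.1% were called higher in the knockout and 9.2% lower, 31.3% in all. Of 45 members, 1 was called higher and 2 lower. The members' median log2 ratio was -0.11, against 0.09 over all genes (-0.02 with TMM scaling, with the members at -0.22), and 8 of the 45 lay above the median of all genes. In 4 bins from short to long transcripts, the medians of all genes were -0.06, 0.05, 0.15 and 0.21. Those of the members were -0.09 (24 genes), -0.12 (16), -0.07 (4) and 0.02 (1). The distance was thus small among the shortest genes, and the part of length in it was not tested. Under TMM and median of ratios scaling, 1 member was called higher and 9 lower, and the split of all genes turned to 13.7% higher and 15.9% lower with TMM. The 8 members called lower at both scalings, beside Psme2, were Psma5, Psmb1, Psmc6, Psmd5, Psmd8, Psmg4, Psme1 and Psmc3ip, each with ratios of -0.53 to -0.33.

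The core had lower ratios than the regulatory particle. The 14 core genes summed to 4026 CPM in the knockout and 4442 CPM in the wild type, a log2 ratio of -0.14 (-0.16 to -0.13). The 17 base and lid genes summed to 2078 and 2063 CPM, a ratio of 0.01 (-0.01 to 0.03). The core median of -0.14 was 0.15 below the regulatory median of 0.01, and over all alternatives the difference ranged from -0.19 to -0.11. The regulatory median itself was -0.10 under TMM scaling, and the core median was 0.51 in cells under 15000 UMIs. With limits of 0.5% and 1 to 5% mt the core and regulatory medians were -0.04 and 0.11. With cells weighted alike they were -0.05 and 0.14. At 5 to 10% mt, where the share was lowest in both libraries, lay 252 knockout and 111 wild-type cells. The part of this in the ratios was not tested. The assembly factors had a median of -0.14 and the CCT genes one of -0.16, so the core lay near these and the base and lid lay above.

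Among single subunits, Psma1 had the highest alpha ratio, 0.10 (148 and 138 CPM) and -0.00 with TMM scaling, and Psma5 the lowest, -0.23 (180 and 211 CPM). All 7 beta subunits had ratios under 0, from -0.11 in Psmb4 to -0.30 (-0.35 to -0.25) in Psmb1, which had 304 and 375 CPM. In the base, Psmc1 was at 0.14 (123 and 112 CPM) and Psmc6 at -0.25 (107 and 127 CPM). In the lid, Psmd7 was at 0.25 (324 and 272 CPM) and Psmd8 at -0.23 (165 and 194 CPM). Psmd7 lies on chromosome 8 (chr8:107580381-107588464), and 50.3% of these knockout cells had a raised share of chromosome 8 transcripts, against 9.85% of the wild-type cells. Without those cells Psmd7 was at -0.08. The part of the raised share in the ratio was not tested further. The assembly factors ran from 0.01 in Psmd9 to -0.25 in Psmg4, and neither Psmf1 at -0.04 nor Psmc3ip at -0.22 was called.

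**Figure D3:**
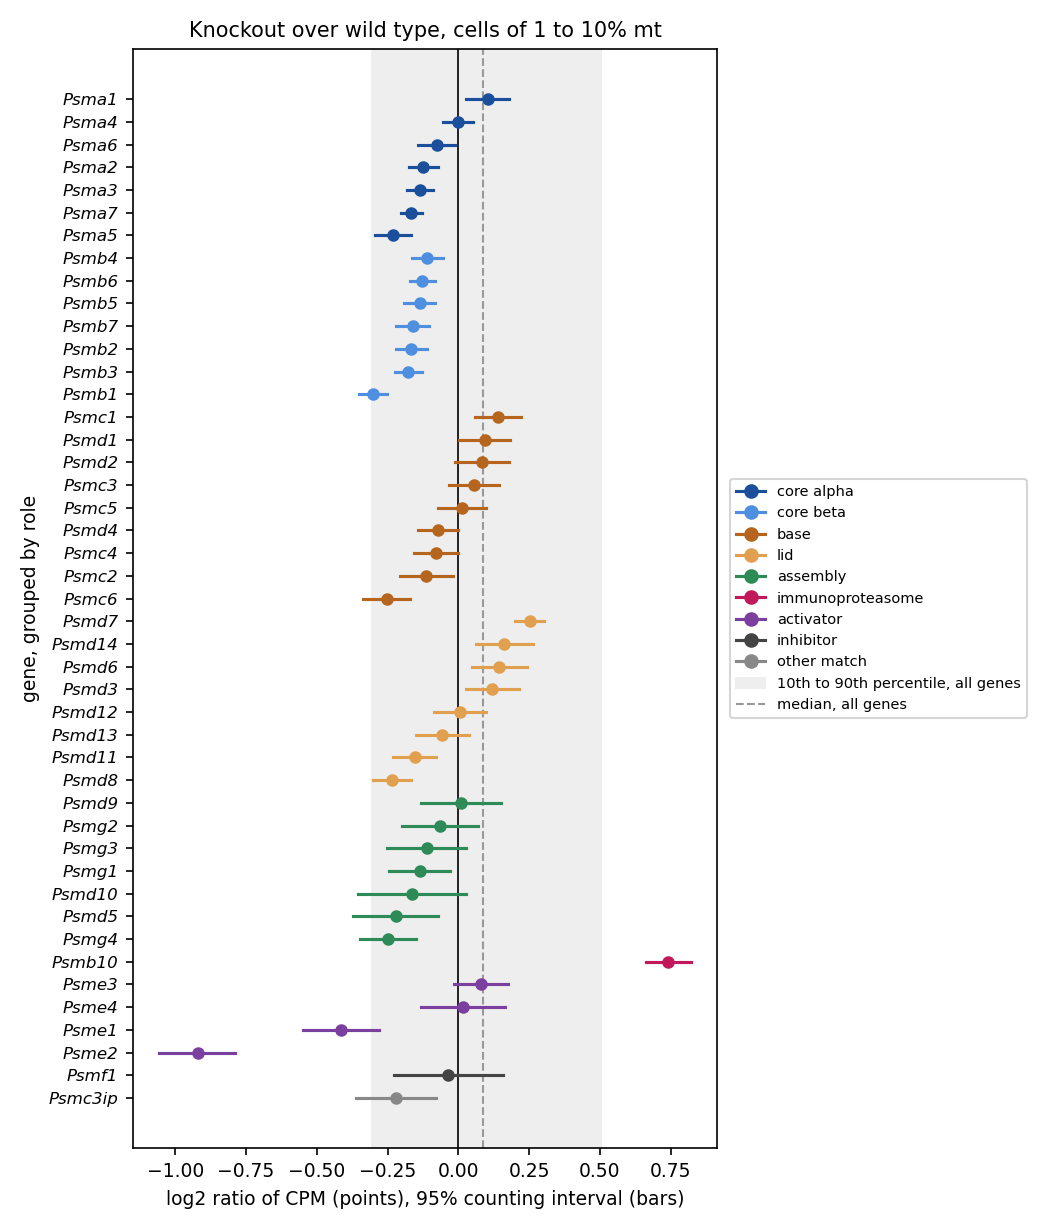
Log2 ratio of CPM, knockout over wild type, in cells of 1 to 10% mt (x axis) for the 45 members that entered (y axis, grouped by role), drawn with the same symbols, 95% counting intervals and all-gene band. Most members lie between -0.30 and 0.25, and Psmb10 at 0.74, Psme1 at -0.41 and Psme2 at -0.92 stand outside.

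The 3 called members all belong to the interferon-inducible set, and they went in different directions. Psmb10 (chr8:105935735-105938444), which replaces the catalytic Psmb7, had 3021 UMIs (166 CPM) in the knockout and 2309 UMIs (99.2 CPM) in the wild type. Its log2 ratio was 0.74 (0.66 to 0.82) and was 0.51 without the cells of raised chromosome 8 share. Psme2 (chr14:55587441-55591113) had 644 UMIs (35.4 CPM) and 1559 UMIs (67.0 CPM), a ratio of -0.92 (-1.06 to -0.79). It was detected in 53.9% of knockout and 70.0% of wild-type cells. Its neighbour and partner Psme1 (chr14:55578123-55581529) had 39.4 and 52.6 CPM, a ratio of -0.41 (-0.55 to -0.28). In cells under 15000 UMIs Psme1 turned to 0.81, on 65 and 53 UMIs, and Psme2 stood at -0.47 and was no longer called. Psme3 at 0.08 (91.3 and 86.4 CPM) and Psme4 at 0.02 (36.3 and 35.9 CPM) are activators that interferon is not known to induce, and neither was called.

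The other inducible subunits, Psmb8 and Psmb9, lay under the 10 CPM minimum, as did Psme2b, Psma8 and Psmb11. Psmb8 had 9 UMIs in 4 knockout cells and 87 UMIs in 39 wild-type cells, with 21 of the 87 in a single cell and 39 in 5 cells. Without cells carrying 3 or more UMIs of the primitive endoderm list, which make up 21.8% of knockout and 3.92% of wild-type cells, Psmb8 had 1 and 61 UMIs. Psmb9 had 31 UMIs in 30 knockout cells and 72 UMIs in 63 wild-type cells, a ratio of -0.85 (-1.52 to -0.24). Psme2b had 15 and 64 UMIs, and how reads shared with Psme2 were counted is not given in the sources used here, so both are uncertain. Psma8 had 99 and 225 UMIs, and the thymus subunit Psmb11 had 1 and 0. Psmb11 was under the limit that 3 UMIs set. The share of all genes under the minimum that were lower in the knockout was not taken, so these values give no common direction. The 3 usual catalytic subunits had ratios of -0.14 (Psmb5), -0.13 (Psmb6) and -0.16 (Psmb7).

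**Figure D4:**
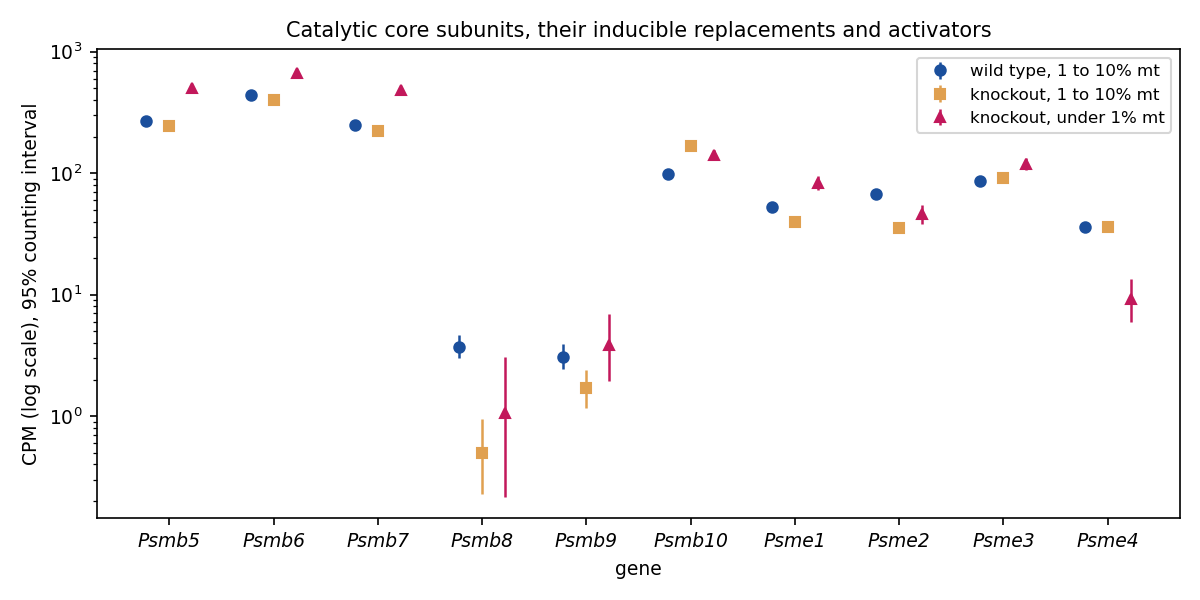
CPM (y axis, log scale) with 95% counting intervals of the catalytic core subunits Psmb5 to Psmb7, their inducible replacements Psmb8 to Psmb10 and the activators Psme1 to Psme4 (x axis) in wild-type and knockout cells of 1 to 10% mt and knockout cells under 1%. Psmb10 is higher in knockout cells of 1 to 10% (166 against 99.2 CPM), and Psmb8 and Psme2 are lower.

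Of the pathway list, 26 genes entered the comparison of genotypes at 1 to 10% mt, 8 were called higher and 0 lower. They include the unfoldase cofactor Nploc4 at 0.66, Nfe2l1 at 0.64 (52.4 and 33.6 CPM) and the unfoldase Vcp at 0.45 (192 and 141 CPM). The list's share of 8 in 26 compares with 22.1% of all genes. None of the 7 CCT genes was called. Nfe2l1 was called higher in the knockout at 1 to 10% mt, where the 31 core and regulatory genes had 0 calls. It lies in the bin of longest genes, where the median of all genes was 0.21 in this comparison. Within the knockout library Nfe2l1 was called lower under 1% mt, where 30 of the 31 were called higher. The part of Nfe2l1 in the levels of the subunit genes was not tested.

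The genotype ratio depended on the depth of the cells. In the 116 knockout and 159 wild-type cells of 1 to 10% mt with under 15000 UMIs, a split chosen after seeing the data, the members' median was 0.51 instead of -0.11, with 30 members called higher and 1, Psmg4, lower. Of all genes 15.1% were then called higher and 10.0% lower, with a median of 0.05. Of these shallow cells, the knockout cells under 10000 UMIs had the shares of 1.03 and 0.943% given above, those of 10000 to 15000 UMIs had 0.679%, and the wild-type cells had 0.539 to 0.608%. In the 615 knockout cells of at least 15000 UMIs the core and regulatory medians were -0.17 and -0.03. Psmb10 was called higher at both depths, at 0.69 and 0.74.

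To compare the subunits' levels across cells, each cell was thinned at random to 5000 UMIs. This left out 7 knockout and 5 wild-type cells of 1 to 10% mt, and 17 knockout cells under 1%. The members then summed to 34.7 ± 13.1 UMIs (mean ± SD over 724 cells) in knockout cells of 1 to 10% mt, 34.8 ± 11.99 (888 cells) in wild-type cells and 65.0 ± 12.8 (227 cells) in knockout cells under 1%. The spread beyond counting noise, as a coefficient of variation, was 33.7%, 30.1% and 15.3%. In the 16 wild-type cells under 1% mt it was 31.5%. Knockout cells under 1% mt thus varied least in proteasome share among these classes. Among cells of 1 to 10% mt with at least 15000 UMIs this spread was 28.5% for the knockout and 28.1% for the wild type, and among shallower cells 42.3% and 34.2%.

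Cells with more core transcripts also held more base and lid transcripts in each class. The correlation (Pearson's r) between their thinned sums was 0.62 over knockout cells and 0.51 over wild-type cells of 1 to 10% mt, and 0.38 over knockout cells under 1%. These cells share 1 library each, so the values are descriptions. With the counting variance subtracted, r was 0.95, 0.83 and 0.82, and with another random thinning it was 0.90, 0.89 and 0.81, so the gap between genotypes changed with the random draw. Base and lid gave a corrected r of 0.89 over knockout cells and 0.80 over wild-type cells of 1 to 10% mt. Over knockout cells under 1% they gave 1.21, and the core gave 1.08 with the base and 0.65 with the lid. A correlation cannot exceed 1, so corrected values of that class are imprecise. At 1 to 10% mt, the core and the CCT genes gave 0.86 over knockout cells and 0.72 over wild-type cells. Base and lid together gave 0.90 and 0.92 with the CCT genes. In wild-type cells the 0.92 stood beside 0.83 for base and lid with the core, or 0.89 with the other thinning. The uncorrected values were 0.52 and 0.51. Since the CCT values were taken at the first thinning only, their order against the core is uncertain. Cells rich in proteasome transcripts were thus also rich in those of an unrelated complex. The members' thinned sum had an r of -0.53 with the mitochondrial share in knockout cells of 1 to 10%, -0.38 in wild-type cells and -0.32 in knockout cells under 1%.

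**Figure D5:**
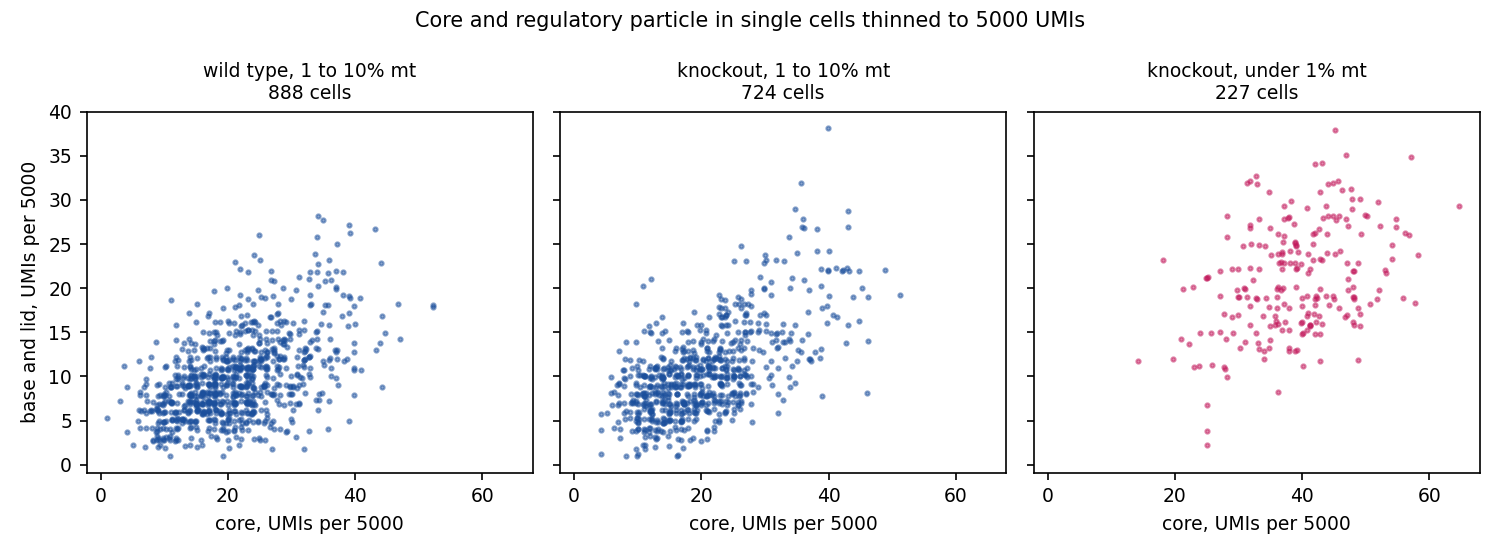
UMIs of base and lid genes (y axis) against core genes (x axis) in single cells thinned to 5000 UMIs, with 1 jittered point per cell, for wild-type cells of 1 to 10% mt (888), knockout cells of 1 to 10% (724) and knockout cells under 1% (227). The first 2 clouds centre on similar values (r of 0.51 and 0.62), and the third lies further right and up (r of 0.38).

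Pairs of single genes were weakly correlated. Over 630 pairs of the 36 members with at least 50 CPM the median r at 1 to 10% mt was 0.0749 over knockout cells and 0.0570 over wild-type cells, and 0.0348 over knockout cells under 1%. The medians over pairs of all 2284 genes at that level were 0.0035, 0.0029 and 0.00095. Core pairs had 0.131, 0.117 and 0.0599, and CCT pairs 0.143, 0.117 and 0.165. In sparse counts such values say little about single pairs. On the log2 scale of thinned counts plus 1, each member was also set against the sum of the others. In wild-type cells of 1 to 10% mt, the members with the highest r to that sum were Psmb6 (0.41) and Psma7 (0.35), and those with the lowest were Psmg4 (-0.05) and Psmb10 (-0.01).

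The 5 genes outside the family whose thinned counts most resembled the members' sum over the 888 wild-type cells were Ppia (r of 0.61), Hsp90aa1 (0.50), Gapdh (0.48), Ran (0.46) and Ubb (0.46). In the knockout cells of 1 to 10% they had 0.62, 0.53, 0.45, 0.52 and 0.54. Ppia encodes a peptidyl-prolyl isomerase, Hsp90aa1 a chaperone, Gapdh a glycolytic enzyme, Ran a nuclear transport GTPase and Ubb a ubiquitin precursor. The cells behind each r share a library and, after thinning, a depth.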

How the data were processed

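The authors deposited whole-number UMI counts per gene and cell in MatrixMarket files, per the file headers. The submitters' processing notes name Cell Ranger 2.0.0, Seurat 3.1.1 and mm10. The counting rule, chemistry and cell calling are not given in the sources used here. Gene positions and transcript lengths come from GENCODE M21 (GRCm38), which matched all 50 members.

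Counts were summed over the cells of each library and mitochondrial class and scaled to CPM. Log2 ratios had 0.5 counts added to each sum. The 95% intervals are exact, Poisson for levels and conditional on the total for ratios. They cover counting error only, since 1 library per genotype allows no test. Genes entered at a mean of 10 CPM, and a call needs a log2 ratio past 0.32 in size with an interval apart from 0. Cells were thinned without replacement to 5000 UMIs for correlations, and the corrected r subtracts Poisson variance. Scrublet in scanpy 1.11.5 called 1 knockout and 2 wild-type doublets, too few to count as a working filter, and called cells were kept. TMM factors came from edgeR 4.0.16, for scaling only. The scripts were tested on simulated data. Named were, per role, the highest and lowest ratios, every called member up to 10 per direction, and every immunoproteasome gene, activator and inhibitor. The comparisons with alternatives cover scaling, weights, minimum level, cells kept and class limits. The members, gene lists and rules were chosen with earlier results of these data known.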

Additional observations from a re-analysis of the deposited data

Results flagged for a closer look

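For 13 pairs of ratios, the counting intervals of the pair lay on opposite sides of 0. With 1 library per genotype the differences were not tested.

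Psma7 was higher in cells under 1% mt than in cells of 1 to 10% in the knockout library (log2 ratio 0.66) and lower in the wild-type library (-0.23).

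In 12 core, base and lid genes the ratio of knockout over wild type was negative in cells of 1 to 10% mt and positive in cells under 1%, where the wild type has 16 cells. The alpha subunits were Psma2 (-0.12 and 0.63), Psma3 (-0.14 and 0.73), Psma6 (-0.0770 and 0.44) and Psma7 (-0.17 and 0.72). The beta subunits were Psmb1 (-0.30 and 0.33), Psmb2 (-0.17 and 0.51), Psmb3 (-0.18 and 0.75), Psmb5 (-0.14 and 0.73), Psmb6 (-0.13 and 0.50) and Psmb7 (-0.16 and 0.65). In the base Psmc4 had -0.0778 and 0.98, and in the lid Psmd11 had -0.15 and 0.46. The first value of each pair is that of cells of 1 to 10% mt.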

How the results depend on the processing

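No paired analysis was possible because there is 1 library for each genotype. The members' median log2 ratio between classes of knockout cells stayed above 0 under every alternative run, from 0.71 in cells under 15000 UMIs to 1.22 with TMM and 1.31 with median of ratios scaling, and was 0.81 with totals without mitochondrial and ribosomal protein genes. Its count of called members stayed between 35 and 45. The genotype median at 1 to 10% mt was -0.22 with TMM, -0.23 with median of ratios, -1.38731e-05 with limits of 0.5% and 1 to 5% mt, and reversed to 0.51 in cells under 15000 UMIs. Its 3 called members became 10 with either scaling, 7 at a minimum of 1 CPM, 5 without the cells of raised chromosome 8 share and 31 in cells under 15000 UMIs, where Psme1 reversed to 0.81. The genotype median under 1% mt was 0.92 with TMM, 0.97 with median of ratios, 0.31 with limits of 2% and 2 to 10%, and 0.015 in cells under 15000 UMIs. The wild-type median between classes was -0.0104 with TMM, 0.0181 with median of ratios, 0.51 with cells weighted alike, 0.37 with the 2% limit and 1.18 in cells under 15000 UMIs. The corrected correlation of core with regulatory genes in wild-type cells was 0.984 thinned to 3000 UMIs, 0.930 so thinned without mitochondrial and ribosomal protein genes and 0.943 in cells under 15000 UMIs. In knockout cells under 1% mt it was 0.645 with the 0.5% limit and 0.680 in cells under 15000 UMIs. The causes were not tested. The splits at 15000 UMIs and the run without shared barcodes were chosen after seeing the data. Of the medians, counts and correlations under the alternatives, 116 stayed near the reported value, 25 moved and 2 reversed. Of the ratios of single members, 1126 stayed near, 329 moved and 1 reversed. Only a called member could count as reversed, so a change of sign in an uncalled member was counted as moved or near. These counts therefore do not measure how often single members changed sign. The depth limits the 16 wild-type cells under 1% mt, with 286036 UMIs, and the genes with few UMIs.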
